A study of Mus musculus with 4 samples.

Results

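The 10 genes described here carry MHC class II antigen presentation in the mouse, and they were taken by name from 23699 gene rows measured in proximal colon. They encode the surface molecules (H2-Aa, H2-Ab1, H2-Eb1), their invariant chain (Cd74), the peptide exchange factor DM (H2-DMa, H2-DMb1, H2-DMb2), its inhibitor DO (H2-Oa, H2-Ob) and the transactivator of the whole set (Ciita). Each gene had 1 row with a status of OK in every library, and all 10 passed a filter of 0.5 FPKM on the mean over libraries, as did 13997 genes in all. RNA came from the 2 cm of colon that follow the caecum, in mice 6 weeks old of a strain given as mixed. The mutant group (2 libraries) carried Nkx2.2flox/flox with Villin-Cre/+, a transgene whose promoter acts in the gut epithelium. Nkx2-2 is a transcription factor gene of the enteroendocrine lineage. The control group (2 libraries) carried Nkx2.2flox/+, with no Cre named. The groups therefore share 1 floxed allele and differ both in the other allele and in the transgene, and these cannot be told apart. No label tells if the libraries of a group are different animals, and p-values cover only the spread between the libraries, which may be technical.

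Class II molecules present peptides from endosomes to CD4+ T cells. A pair of alpha and beta chains is assembled on the invariant chain, which is then cut down to a fragment in the groove, and DM exchanges that fragment for a peptide while DO holds DM back. Dendritic cells, B cells and macrophages express class II molecules constitutively. Gut epithelial cells express them when interferon gamma induces CIITA, which docks on a shared promoter module bound by RFX and NF-Y.

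The libraries differed in several ways, given here before the class II values, and their part in those values was not tested. FPKM are fragments divided by transcript length and by the size of the library. Sequencing depth relative to control 1 was 0.464 in mutant 1, 1.03 in mutant 2 and 1.13 in control 2. Nkx2-2 itself stood at 0.125 and 0.351 FPKM in mutants, against 0.724 and 0.609 FPKM in controls. These levels rest on no more than 16.4 fragments in any library, as implied by the interval width in the files, taken as 95%. Over all genes tested, the log2 change of mutant over control had a median of -0.17, and 66.3% of them were lowest in mutant 1. The 12 B cell markers summed to 18.1 and 14.1 FPKM in mutants, against 162.7 FPKM in control 1 and 11.5 FPKM in control 2. The 12 colon epithelium markers summed to 25883 and 25928 FPKM in mutants, against 23657 and 32390 FPKM in controls, so the labelled tissue was present in every library. Most of each sum is Car1, with 17319.6 and 16277.6 FPKM in mutants, against 15111.6 and 22062.5 FPKM in controls. In bulk tissue, fewer cells of a type and less RNA per cell cannot be told apart, and this holds for every level below.

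The promoter module described above is shown first, for those of the class II genes whose promoters were searched. RefSeq promoters (300 bases, on GRCm38.p6) of 7 of the 10 genes were searched, and each stretch shown was placed on mm9 by an exact match. Cd74 was left out of this search. The windows run 5′ to 3′ in the direction of transcription. The capitals mark AAC, which falls where the X box of class II promoters is described, and TGATTGG, the inverted CCAAT of the Y box. The search asked for AAC, 22 to 28 bases of any kind and then TGATTGG, on both strands, and the motif and its spacing were chosen after these promoters had been seen.
H2-Aa: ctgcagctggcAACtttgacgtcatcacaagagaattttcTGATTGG
H2-Eb1: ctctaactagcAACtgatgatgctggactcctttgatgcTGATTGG
H2-DMb1: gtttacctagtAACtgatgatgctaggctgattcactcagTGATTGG
H2-DMb2: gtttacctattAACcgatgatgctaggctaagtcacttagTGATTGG
H2-Oa: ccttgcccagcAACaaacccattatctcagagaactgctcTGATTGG
H2-Ob: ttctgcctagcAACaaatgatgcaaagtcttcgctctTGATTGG

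The H2-Aa window lies on the minus strand at chr17:34424812-34424858 of mm9, and its TGATTGG ends 43 bases before the start used in the RefSeq promoter table, which differs from the end of the gene row in the files. The plus-strand windows are chr17:34442712-34442757 for H2-Eb1, chr17:34290033-34290079 for H2-DMb1 and chr17:34282062-34282108 for H2-DMb2. Those of the DO genes are chr17:34229239-34229285 for H2-Oa and chr17:34375754-34375797 for H2-Ob. In H2-Oa a second AAC overlaps the first window and stands 22 bases from the same TGATTGG. The pair was found in 6 of the 7 genes, while 237 of the 32851 RefSeq promoters (0.721%) hold it, and TGATTGG by itself stands in 7.82% of them. The 2 promoters listed for H2-DMa hold no such letters in these windows. The windows of H2-DMb2 and H2-DMb1 differ at 5 of 47 positions. Counted from 1 at the 5′ end of the window, with the H2-DMb1 base first, these are G10T, T15C, G30A, T32G and C38T. A match is a description of the letters and not of binding, which was not measured here.

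For these genes the design sets mutant colon, with Villin-Cre and floxed Nkx2-2, against control colon. None of the 10 class II genes passed the threshold of an adjusted p of 0.05 (limma on log2(FPKM + 0.5), Benjamini-Hochberg over all tested genes), where 0.0643% of tested genes did. The authors' deposited table, in which every one of the 10 has an adjusted p of 1, called 0 of them as well. All 10 had a log2 change below 0, as had 82.6% of tested genes. Both mutant libraries lay below both controls in 3 class II genes (H2-DMb2, H2-Eb1 and H2-Oa), and the groups overlapped in the other 7. The same order held in 35.1% of tested genes, so 3 of 10 is near that background. At an unadjusted limma p under 0.05, H2-DMb2 and H2-Oa were lower in mutants, where 4.12% of tested genes were called lower in this way. The median change of the 10 was -0.51 on the log2 scale, or -0.35 relative to all tested genes. It was 0.0057 without mutant 1, so the median below 0 rests on that library, in which 9 of the 10 genes were lowest.

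**Figure D1:**
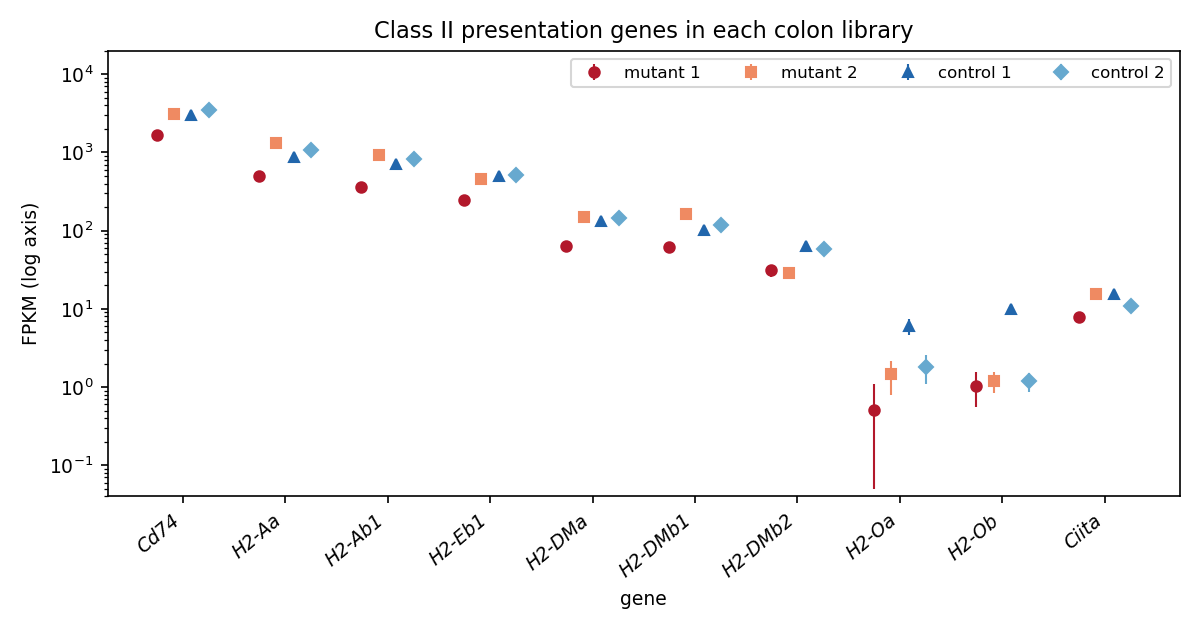
FPKM of the 10 class II genes on a log10 axis, with 1 point for each library, mutants left of controls. Bars are the authors' intervals, taken as 95% (cut at the axis where they reach 0). Mutant 1 is the lowest library in 9 of the 10 genes, H2-DMb2 is low in both mutants, and H2-Oa and H2-Ob stand apart in control 1.

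The alpha chain gene H2-Aa (mm9 chr17:34419696-34424716, minus strand) stood at 494.7 and 1341 FPKM in mutants, against 872.3 and 1080.3 FPKM in controls. The mutant pair enclosed the control pair, and the log2 change was -0.25 (SE 0.39, 95% interval -1.15 to 0.65, limma adjusted p = 0.853). Its partner beta chain gene H2-Ab1 (mm9 chr17:34400172-34406363) stood at 358.0 and 920.4 FPKM in mutants, against 722.1 and 816.4 FPKM in controls. Again 1 mutant lay below and 1 above both controls, with a log2 change of -0.42 (SE 0.37, limma adjusted p = 0.825). These are the chains of the I-A molecule. Without mutant 1 both changes took the opposite sign, at 0.47 for H2-Aa and 0.26 for H2-Ab1.

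H2-Eb1, the beta chain gene of I-E (mm9 chr17:34442812-34453619), had 249.0 and 461.4 FPKM in mutants, against 504.1 and 507.7 FPKM in controls. The groups did not overlap, but mutant 2 lay close to the controls, which were nearly equal (355.2 ± 150.2 FPKM in mutants and 505.9 ± 2.56 FPKM in controls, SD, n = 2 each). The log2 change was -0.58 (SE 0.27, 95% interval -1.19 to 0.04, limma adjusted p = 0.825), and it was -0.13 without mutant 1 and -1.02 without mutant 2. The alpha chain of I-E is a pseudogene in the reference, and its row H2-Ea-ps was at 0.249 FPKM in mutant 1, on 1 implied fragment, and listed at 0 in the other libraries. Class II alleles differ greatly between mouse strains, the strain here is mixed, and how fragments of other alleles mapped to mm9 was not tested.

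Cd74, the invariant chain, was the most abundant of the set. It had 1684 and 3067 FPKM in mutants, against 2996 and 3514 FPKM in controls, and its row lies on mm9 chr18:60963503-60972306. Only mutant 1 fell outside the control range, and the log2 change was -0.51 (SE 0.27, 95% interval -1.13 to 0.10, limma adjusted p = 0.825). It was -0.08 without mutant 1 and -0.95 without mutant 2. The longer splice form, which adds an exon encoding a thyroglobulin domain that inhibits cysteine proteases, made up 14.3% and 13.7% of Cd74 FPKM in mutants, against 14.1% and 13.2% in controls. The share of the long form thus stayed within a narrow range over the 4 libraries, while the level of the gene did not.

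Ratios within a library do not depend on scaling between libraries. Cd74 over H2-Ab1 was 4.71 and 3.33 in mutants, against 4.15 and 4.30 in controls, and the groups overlapped. H2-Eb1 over H2-Ab1 was 0.696 and 0.501 in mutants, against 0.698 and 0.622 in controls. H2-Aa over H2-Ab1 was 1.38 and 1.46 in mutants, against 1.21 and 1.32 in controls. That ratio of the I-A chains was the 1 of 6 examined in which both mutants lay above both controls, by 0.17 on the log2 scale. Surface molecule RNA (H2-Aa, H2-Ab1 and H2-Eb1) summed to 1102 and 2722 FPKM in mutants, against 2099 and 2404 FPKM in controls, so the mutant libraries stood on either side of the controls.

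**Figure D2:**
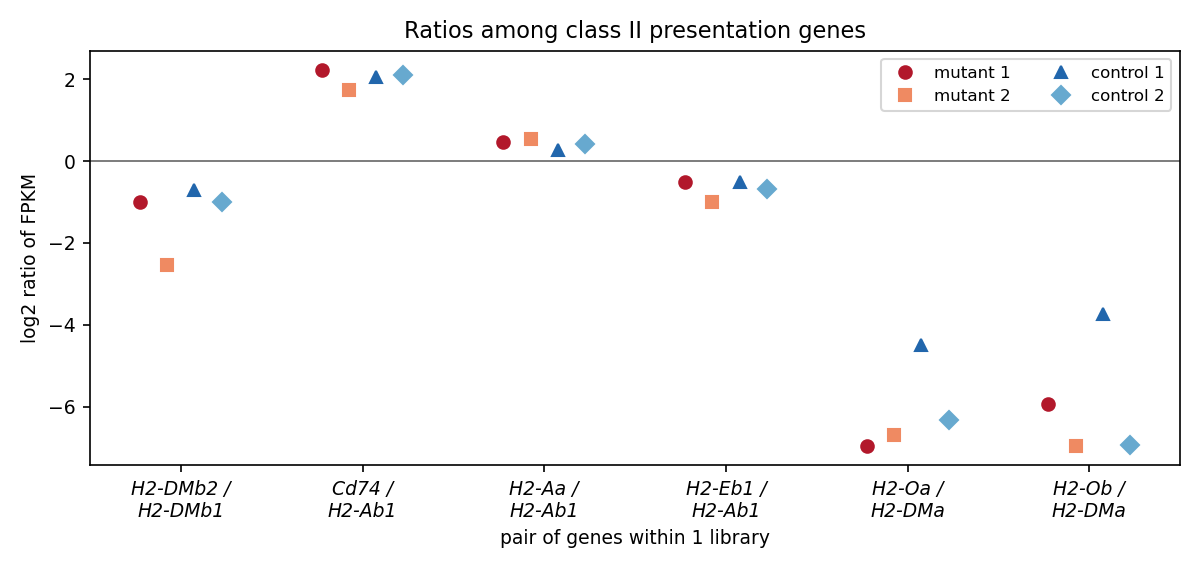
FPKM ratios between pairs of class II genes in each library on a log2 axis, mutants left of controls. H2-DMb2 over H2-DMb1 is lowest in mutant 2, and H2-Oa over H2-DMa is below both controls in both mutants.

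DM, the peptide exchange factor, pairs the H2-DMa alpha chain with a beta chain from either of 2 neighbouring genes. H2-DMa (mm9 chr17:34272616-34275480) had 64.3 and 150.1 FPKM in mutants, against 134.7 and 147.1 FPKM in controls, and a log2 change of -0.52 (SE 0.34, limma adjusted p = 0.825). Mutant 2 was the highest of the 4 libraries and mutant 1 the lowest. H2-DMb1 (mm9 chr17:34290136-34297174) had 61.6 and 165.0 FPKM in mutants, against 103.1 and 117.7 FPKM in controls, with a log2 change of -0.13 (SE 0.39, limma adjusted p = 0.922). As with H2-DMa, the mutant pair enclosed the controls, and without mutant 1 the changes were 0.092 for H2-DMa and 0.58 for H2-DMb1. After rescaling the libraries to equal median ratios, H2-DMb1 turned to 0.059.

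H2-DMb2, the other beta chain gene (mm9 chr17:34282361-34288040), was nearly level between the mutants. It had 31.0 and 28.5 FPKM in mutants, against 63.6 and 58.5 FPKM in controls. Both mutants lay at about the same level and well below both controls (29.8 ± 1.79 FPKM in mutants and 61.1 ± 3.60 FPKM in controls, SD, n = 2 each). The fitted ratio of mutant over control, from log2(FPKM + 0.5), was 0.491. The log2 change was -1.02 (SE 0.18, 95% interval -1.43 to -0.62), with an unadjusted limma p of 0.000348, rank 18 of the 13997 tested genes, and an adjusted p of 0.271. So it did not pass the threshold over all genes, although the gap between groups was larger than the spread within them. Leaving out each library in turn gave -0.96 to -1.09, and median ratio rescaling gave -0.84. Behind these levels are 124 and 254 implied fragments in mutants, against 552 and 573 in controls. In the authors' deposited table the mean normalized count of H2-DMb2 was 78.4 in mutants and 205.4 in controls, with a log2 fold change of -1.39, a p of 0.0401 and an adjusted p of 1.

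**Figure D3:**
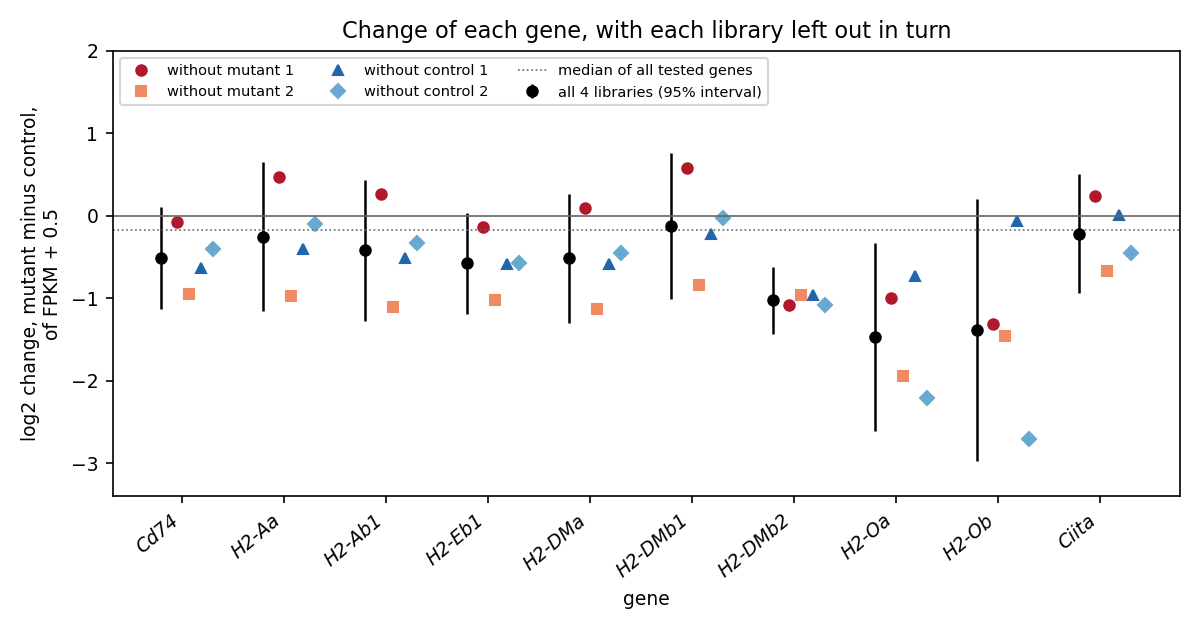
Log2 change of mutant over control for each class II gene (black points, log2(FPKM + 0.5)) with the 95% interval of the limma fit, and the same change with each library left out in turn (coloured points). The dotted line is the median of all tested genes. H2-DMb2 is the gene whose change stays near -1.02 in every fit, while 5 of the 10 genes cross 0 when mutant 1 is left out.

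The coding sequences of H2-DMb2 and H2-DMb1 (GENCODE vM1) are both 786 bases long and share 754 of them, or 95.9%. Of the 737 stretches of 50 bases in the H2-DMb2 coding sequence, 353 (47.9%) also stand in that of H2-DMb1. A fragment read only within such a stretch would match both genes. How fragments were divided between the 2 genes, and how far this moves either level, was not tested. The H2-DMb2 row has a transcript length of 786 bases, the coding part only, and the H2-DMb1 row one of 1284 bases. H2-DMb2 over H2-DMb1 was 0.504 and 0.173 in mutants, against 0.617 and 0.497 in controls. The groups overlapped in this ratio, mutant 1 being inside the control range and mutant 2 far below it. The 2 rows together summed to 92.6 and 193.5 FPKM in mutants, against 166.7 and 176.2 FPKM in controls, again with the mutants on either side. Whether strain variants or shared fragments move with the H2-DMb2 value was not tested.

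DO, the inhibitor of DM, is made mainly by B cells, with smaller amounts in some dendritic cells. H2-Oa (mm9 chr17:34229324-34232179) had 0.511 and 1.46 FPKM in mutants, against 6.01 and 1.83 FPKM in controls. Both mutants were below both controls, but control 1 stood far above the other 3 libraries. The log2 change was -1.47 (SE 0.50, 95% interval -2.60 to -0.33), with an unadjusted limma p of 0.0174 and an adjusted p of 0.825. Without control 1 it was -0.73, and the levels rest on 3 and 19 implied fragments in mutants, against 76 and 24.2 in controls. The row overlaps BC051537, which was at or below 0.196 FPKM in each library.

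H2-Ob (mm9 chr17:34375850-34382853), the beta chain of DO, had 1.05 and 1.203 FPKM in mutants, against 10.1 and 1.195 FPKM in controls. The mutants and control 2 were thus at one level, and control 1 was 8.42-fold above control 2. The log2 change was -1.38 (SE 0.69, limma adjusted p = 0.825), and -0.06 without control 1. Without control 2, the fit called H2-Oa and H2-Ob lower in mutants, at adjusted limma p-values of 2.83e-07 and 9.02e-12, with control 1 the lone control. All 12 B cell markers, like both DO genes, were highest in control 1, beside 45.6% of all tested genes. The order of the other 3 libraries differed between these genes. Among the most abundant B cell markers, Cd79b, a signalling chain of the B cell receptor, had 4.48 and 4.69 FPKM in mutants, against 45.1 and 3.51 FPKM in controls. Ms4a1, the CD20 antigen, had 1.62 and 1.01 FPKM in mutants, against 21.7 and 0.796 FPKM in controls. Of the defining B cell genes, Pax5 was listed at 0 in mutant 2 and Fcer2a in control 2. The part of B cells in the DO values was not tested.

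DO was scarce beside DM in all 4 libraries. H2-Oa over H2-DMa was 0.00794 and 0.00971 in mutants, against 0.0446 and 0.0124 in controls, below in both mutants. H2-Ob over H2-DMa was 0.0163 and 0.00801 in mutants, against 0.0747 and 0.00812 in controls, and here the groups overlapped.

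Ciita, the transactivator that sets class II transcription, had 7.94 and 15.4 FPKM in mutants, against 15.3 and 10.97 FPKM in controls (mm9 chr16:10480165-10527657). Mutant 2 and control 1 were at the same level and the groups overlapped, with a log2 change of -0.22 (SE 0.31, 95% interval -0.94 to 0.50, limma adjusted p = 0.843). It was 0.014 without control 1 and 0.24 without mutant 1, so its sign rests on either library. Mouse Ciita starts from separate promoters, of which the first is known from dendritic cells and macrophages, the next from B cells, and the last from cells induced by interferon gamma. The 3 RefSeq transcripts of the files start at 10480165, 10488271 and 10489874 on chromosome 16, in that order along the gene, and which named promoter each belongs to was not tested.

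The transcript from the first start had 1.48 and 2.18 FPKM in mutants, against 2.80 and 1.58 FPKM in controls. That from the second start had 0.770 FPKM in mutant 1 and 0 in mutant 2, against 0.324 FPKM in control 1 and 0 in control 2. Their estimates share most exons and so are not independent. The transcript from the third start was the largest share in every library, with 71.7% and 85.9% of Ciita FPKM in mutants, against 79.6% and 85.6% in controls. In FPKM it had 5.70 and 13.2 in mutants, against 12.2 and 9.40 in controls, and the groups overlapped in each of the 3 transcripts.

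**Figure D4:**
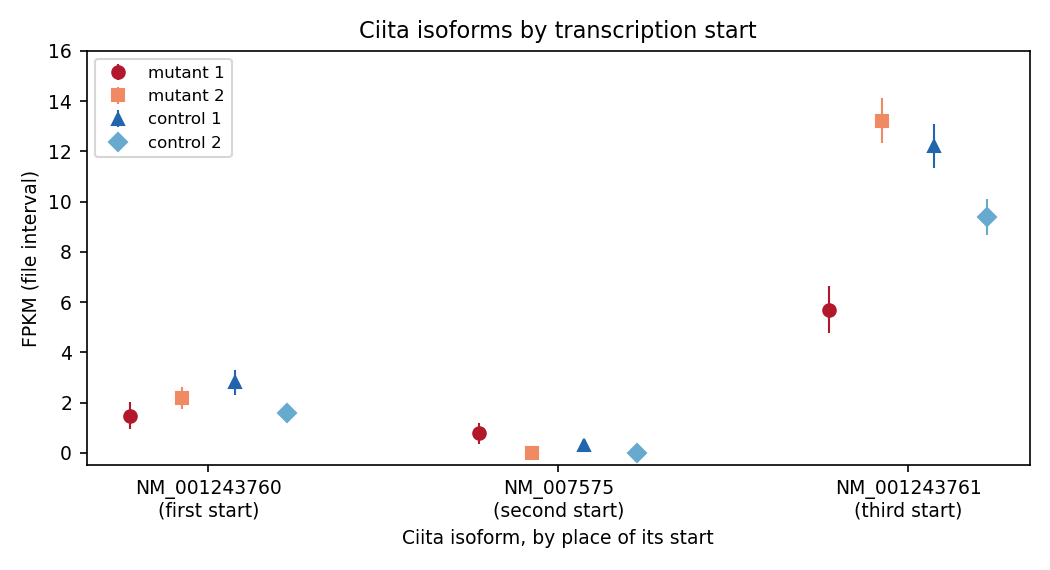
FPKM of the 3 Ciita transcripts by start, in each library, mutants left of controls, with the interval given by the authors, taken as 95%. The third start is the largest in all 4 libraries, and the second is at 0 in mutant 2 and control 2.

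Most class II genes differed in parallel between the mutants. Mutant 2 over mutant 1 was 2.71-fold for H2-Aa, 2.57-fold for H2-Ab1, 1.85-fold for H2-Eb1, 2.33-fold for H2-DMa, 2.68-fold for H2-DMb1, 2.85-fold for H2-Oa, 1.82-fold for Cd74 and 1.94-fold for Ciita, beside a median of 1.16-fold over all tested genes. H2-DMb2, at 0.918-fold, and H2-Ob, at 1.15-fold, were nearly level between the mutants. Between the controls, the surface, DM and Cd74 genes differed by 0.808-fold to 1.09-fold (control 1 over control 2), and Ciita, H2-Oa and H2-Ob by 1.397-fold, 3.29-fold and 8.42-fold. So the larger spread was between the mutants for the main molecules and between the controls for DO.

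Of the 10 genes, 8 lie on chromosome 17 between 34229324 and 34453619 on mm9, in the order H2-Oa, H2-DMa, H2-DMb2, H2-DMb1, H2-Ob, H2-Ab1, H2-Aa and H2-Eb1. With 100 kb on each side this region holds 18 other rows, of which 14 were tested, 0 passed the threshold in limma (1, Tap2, at an unadjusted p under 0.05), 5 had both mutants below both controls and 10 had a change below 0, with a median of -0.26. Over all tested genes the last 2 shares were 35.1% and 82.6%, so in these the neighbours were near or under the background. Their median lay further below 0 than the -0.17 of all tested genes. At that unadjusted limma p, 4.12% of all tested genes were lower. The class I peptide transporter genes sit among them. Tap2 had 30.4 and 45.5 FPKM in mutants, against 59.6 and 49.9 FPKM in controls, and Tap1 had 48.4 and 88.0 FPKM in mutants, against 68.6 and 61.5 FPKM in controls. H2-Eb2, a further beta chain gene, had 0.676 and 0.487 FPKM in mutants, against 4.12 and 0.705 FPKM in controls, with control 1 apart as for H2-Ob. Brd2, a bromodomain gene between H2-Oa and H2-DMa, had 41.5 and 52.5 FPKM in mutants, against 60.1 and 60.4 FPKM in controls.

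Regulators of class II promoters and of Ciita gave 0 calls in limma among 12 tested genes, also at an unadjusted p under 0.05, and 12 had a change below 0 (median -0.19). Beside these and the lists below, 82.6% of all tested genes had a change below 0. At that unadjusted limma p, 4.12% of all tested genes were lower. Irf1, an activator of Ciita, had 152.8 and 255.9 FPKM in mutants, against 206.4 and 221.7 FPKM in controls. It was lowest in mutant 1 and highest in mutant 2. Irf8, a factor of myeloid and B cells, had 49.9 and 84.3 FPKM in mutants, against 83.0 and 71.9 FPKM in controls. Nfyc, a subunit of the factor that binds the Y box, had 20.1 and 23.6 FPKM in mutants, against 24.1 and 23.2 FPKM in controls. Mutant 1 was the lowest library for 9 of the 12, near the 66.3% of all tested genes.

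The endosomal proteases and their partners gave 0 calls in limma among 9 (2 at an unadjusted p under 0.05, Ctsd and Ctsh). All 9 were below 0, 6 had both mutants below both controls, and the median was -0.37. Over all tested genes, 82.6% were below 0, 35.1% had both mutants below both controls and 4.12% were lower at that unadjusted p. Ctss, the protease that trims the invariant chain in antigen presenting cells, had 228.5 and 291.9 FPKM in mutants, against 333.7 and 347.4 FPKM in controls. Cst3, a cystatin and so an inhibitor of such proteases, had 242.1 and 317.2 FPKM in mutants, against 402.8 and 347.9 FPKM in controls. Ctsd, an aspartic protease, had 144.4 and 171.8 FPKM in mutants, against 214.8 and 212.2 FPKM in controls, with an unadjusted limma p of 0.0331 and an adjusted p of 0.825. Ctsb, a cysteine protease, had 136.7 and 165.7 FPKM in mutants, against 174.6 and 175.8 FPKM in controls.

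Genes of class II turnover (March1, March8, Cd83) and the class II-like neighbours H2-Eb2 and Btnl2 gave 0 calls in limma among 5 tested, and 1 at an unadjusted p under 0.05. March8, a ubiquitin ligase, had 28.7 and 34.0 FPKM in mutants, against 32.2 and 42.0 FPKM in controls. Cd83, which stabilizes surface class II, had 5.17 and 5.29 FPKM in mutants, against 15.4 and 8.02 FPKM in controls, a log2 change of -1.02 with an unadjusted limma p of 0.00808 and an adjusted p of 0.825. March1, the ligase of resting antigen presenting cells, had 1.91 and 2.39 FPKM in mutants, against 3.95 and 2.33 FPKM in controls. Receptors for class II and costimulatory genes gave 0 calls in limma among 7, also at an unadjusted p under 0.05, with 6 below 0 (median -0.43). Cd274, the inhibitory ligand PD-L1, had 8.63 and 16.5 FPKM in mutants, against 12.9 and 9.85 FPKM in controls, and Cd4, the coreceptor for class II, had 3.32 and 5.19 FPKM in mutants, against 8.49 and 5.34 FPKM in controls.

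Class I presentation, which serves CD8+ T cells and also responds to interferon, gave 0 calls in limma among 15 (11 below 0, 4 above, median -0.17), and 2 at an unadjusted p under 0.05, H2-D1 and Tap2. H2-K1 had 646.1 and 1247 FPKM in mutants, against 940.8 and 1079.6 FPKM in controls, and B2m, the light chain, had 3334 and 4876 FPKM in mutants, against 4726 and 5315 FPKM in controls. H2-D1 had 894.4 and 904.1 FPKM in mutants, against 1139 and 1252 FPKM in controls, with an unadjusted limma p of 0.0313 and an adjusted p of 0.825. Of the 15, 14 were lowest in mutant 1 and 10 highest in mutant 2, beside 66.3% and 19.3% of all tested genes.

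Genes of the interferon gamma response gave 0 calls in limma among 14, also at an unadjusted p under 0.05 (9 below 0, 5 above, median -0.09), with 13 lowest in mutant 1 and 10 highest in mutant 2, to be read beside the same 66.3% and 19.3%. Their summed FPKM was 715 and 1598 in mutants, against 1019 and 1123 in controls. Ido1, an interferon-induced enzyme of tryptophan breakdown, had 80.6 and 450.8 FPKM in mutants, against 134.2 and 275.4 FPKM in controls. Igtp, an interferon-induced GTPase, had 70.2 and 214.0 FPKM in mutants, against 125.2 and 113.3 FPKM in controls. In the sum and in these 2 genes the mutant libraries thus lay on opposite sides of the controls. Not every gene of the list did so, and 3 of the 14 had both mutants below both controls, beside 35.1% of all tested genes. The part of this response in the class II levels was not tested.

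**Figure D5:**
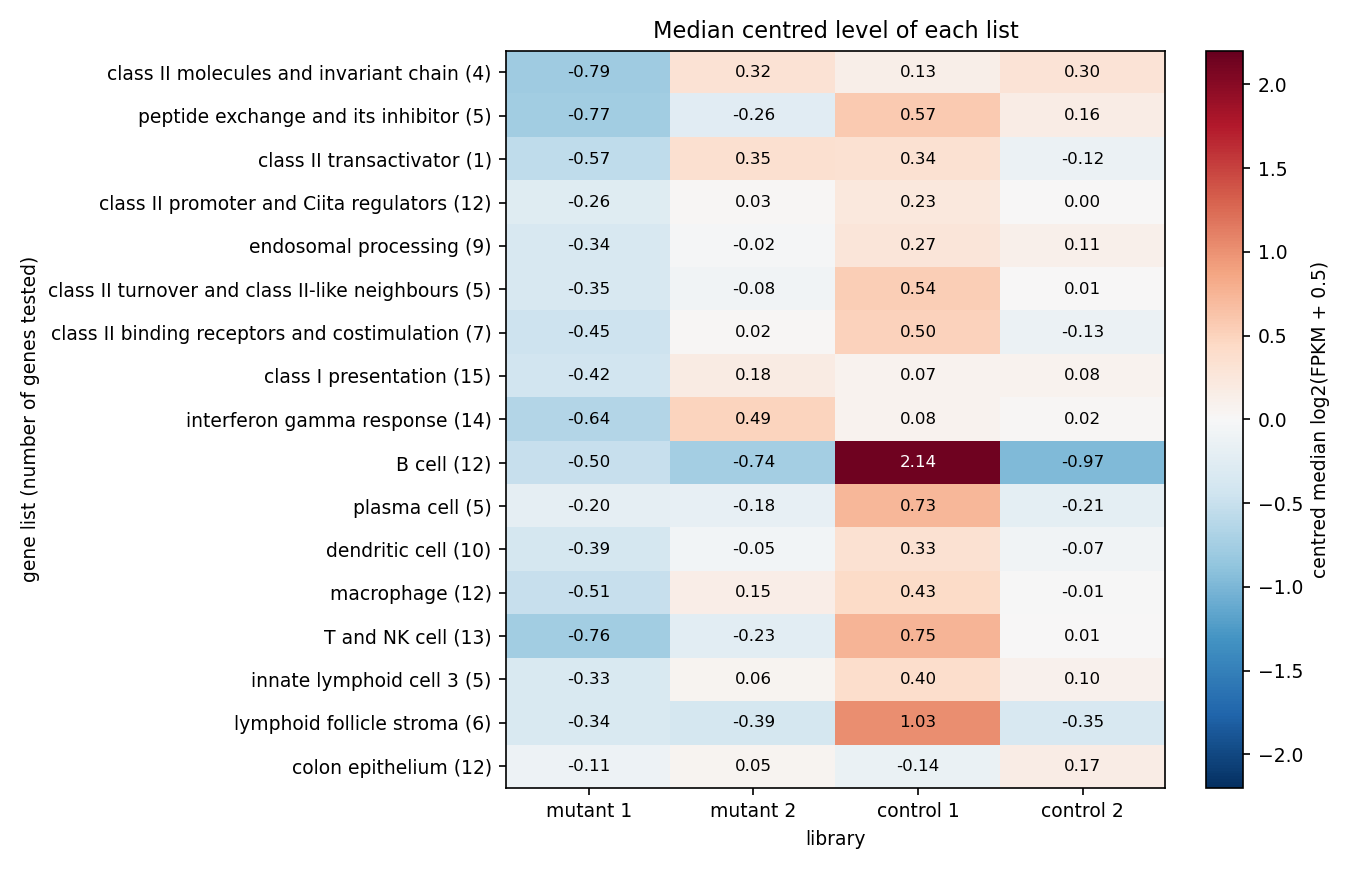
Median of log2(FPKM + 0.5), centred over the 4 libraries, for each list of class II, pathway and cell marker genes (rows, number of genes tested in brackets) in mutants and then controls (columns). Mutant 1 is below 0 in every list, B cell markers reach 2.14 in control 1, and the interferon gamma list reaches 0.49 in mutant 2.

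Markers of other cells of the colon are given beside these values. The 10 dendritic cell markers summed to 18.3 and 27.2 FPKM in mutants, against 38.5 and 28.2 FPKM in controls, and the 12 macrophage markers to 536 and 904 FPKM in mutants, against 1179 and 780 FPKM in controls. None of these 22 was listed at 0. Mutant 1 was the lowest library in 12 of the 12 macrophage markers, beside 66.3% of all tested genes. The 13 T and NK cell markers summed to 119 and 137 FPKM in mutants, against 301 and 190 FPKM in controls, and the 6 markers of lymphoid follicle stroma to 35.8 and 39.6 FPKM in mutants, against 142.7 and 42.0 FPKM in controls. Cxcl13, the chemokine that draws B cells into follicles, had 21.6 and 25.7 FPKM in mutants, against 101.2 and 26.7 FPKM in controls. The 5 plasma cell markers summed to 873 and 832 FPKM in mutants, against 1566 and 837 FPKM in controls, and the 6 of innate lymphoid cells to 15.8 and 20.7 FPKM in mutants, against 25.5 and 22.4 FPKM in controls. The marker lists gave 0 calls in limma. At an unadjusted limma p under 0.05 the T and NK cell list gave 7 lower genes, the dendritic cell and follicle stroma lists 2 each and the others 0. Over all tested genes, 4.12% were lower at that p. The part of these cells in the class II levels was not tested.

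Among the other genes that averaged 5 FPKM or more, the 5 whose pattern over the 4 libraries was most like the mean of the 10 class II genes were Plxnd1, Fcgr2b, Unc93b1, Lilrb4 and Pim1. Likeness was the root mean square distance of centred log2 values, and it was 0.0353 to 0.0706. The mean of the class II genes was highest in control 1 (0.51, against 0.13 in mutant 2), where H2-Oa and H2-Ob stood apart. Of the 10 class II genes, 5 were highest in mutant 2, 3 in control 1 and 2 in control 2, so the mean is not the pattern of each. Fcgr2b, the inhibitory Fc receptor, had 12.3 and 24.5 FPKM in mutants, against 33.6 and 24.4 FPKM in controls. Unc93b1, which carries nucleic acid-sensing receptors to endosomes, had 30.4 and 54.5 FPKM in mutants, against 66.8 and 52.5 FPKM in controls. With 4 libraries this is a description of shape and no more.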

How the data were processed

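The authors deposited a gene file and an isoform file of FPKM for each library, per the file headers, with 95% intervals and a status for each row, and a table of their own DESeq comparison. Per the submitters' processing notes the tools were bcl2fastq 1.8.4, TopHat, Cufflinks and DESeq on mm9. In the authors' deposited table the mean normalized counts of each group are a signal without per-library values, with a fold change as a ratio, its log2 value and p-values. The strandedness of the libraries is not given in the sources used here.

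Rows with a status other than OK (306 of 23699) were left out, rows sharing a symbol were summed (23074 symbols), and the 13997 genes averaging 0.5 FPKM or more were analysed on the scale log2(FPKM + 0.5) in R 4.3.3 by limma 3.58.1, with a variance trend and Benjamini-Hochberg adjustment at 0.05. This scale understates fold changes at low FPKM. There were 2 residual degrees of freedom and, at the median, 6.27 prior ones, and the fit was tested on simulated data. An exact permutation test of 2 libraries against 2 cannot go below p = 0.333, so none is given. Depth is not stated in the files, so relative depth came from the authors' coverage signal over FPKM, and implied fragments came from the width of each interval, both covering counting error only. Starts in the files count from 0, and 1 was added. The class II genes and all lists were chosen with earlier results of these data known. Named genes are the 10 class II genes, some of the region's genes, some of the most abundant genes of the lists and the 5 most alike. Ctsh, Pax5 and Fcer2a were named after their values were seen. A gene that this rule names is not reported here.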

Additional observations from a re-analysis of the deposited data

How the results depend on the processing

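With 4 libraries, 1 library moves most class II values. Of 150 combinations of class II gene and alternative, 135 kept direction and side of the threshold. The sign turned without mutant 1 for H2-Aa (0.47), H2-Ab1 (0.26), H2-DMa (0.092), H2-DMb1 (0.58) and Ciita (0.24), without control 1 for Ciita (0.014), under median ratio (0.059) and quantile scaling (0.020) for H2-DMb1, and in the authors' deposited table for H2-Aa (0.013) and H2-DMb1 (0.12). The cause was not tested.

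The count of genes called, 9, was 2 with no filter, 3 with median ratio scaling and 2 with quantile normalization. Leaving out a library gave 8 to 362 genes, 0 to 2 class II genes, and a median change of the class II genes of -0.997 to 0.0057. Without mutant 2 the genes that turned sign elsewhere stood at -0.97 for H2-Aa, -1.10 for H2-Ab1, -1.12 for H2-DMa, -0.83 for H2-DMb1 and -0.67 for Ciita. With the replicate block, 195 genes and 3 class II genes (H2-DMb2, H2-Oa and H2-Ob) were called. No label pairs the numbers, same-numbered deviations correlated at -0.0022, and this fit and those without a control take their spread wholly from other genes.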

Other observations

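Among 30 tested genes whose symbol begins with H2-, chosen after values had been seen, mutant 1 lay more than 1.5-fold below all 3 other libraries in 11 (36.7% outside on either side, beside 4.24% of all tested genes). These 11 include the class II genes H2-Oa, H2-DMa, H2-DMb1, H2-Ab1, H2-Aa and H2-Eb1, whose values are given above. Control 1 lay so far above the others in 4 (13.3%, beside 4.17% of all tested genes outside on either side). These 4 include H2-Oa and H2-Ob, so both counts partly restate the class II values. Mutant 2 lay so far outside in 3 (10%, beside 0.886%), with H2-Bl at 2.80 and 0.752 FPKM in mutants, against 2.69 and 4.04 FPKM in controls, and H2-T10 at 9.89 and 5.56 FPKM in mutants, against 13.2 and 11.7 FPKM in controls. H2-Q8 was above in mutant 2, at 3.77 and 13.3 FPKM in mutants, against 7.61 and 7.97 FPKM in controls. H2-D1 over H2-K1 was 1.38 and 0.725 in mutants, against 1.21 and 1.16 in controls. These class I genes are near copies of each other, so how fragments were split between them is uncertain.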
